A study of Caenorhabditis elegans with 2 samples.

Results

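The 42 genes described here encode the machinery of chemical synapses in Caenorhabditis elegans: proteins that release and recycle synaptic vesicles, build the active zone, and make, load, take up or break down neurotransmitters. They were taken by name from the gene aliases of a table of poly(A) tail lengths. Of the 42, 39 were listed, each in 1 row, among 13601 genes in all, and 26 had at least 100 tags, a tag being 1 called tail. The 3 genes without a row under their own alias were unc-17, ace-2 and tph-1, and genes with fewer than 10 tags had no row. The material was 1 group only, wild-type N2 animals kept on OP50 bacteria at 25 °C and harvested whole at mid-L4, 29 h into development. mTAIL-seq was run on 2 biological replicates, which the table does not tell apart, so every value below is a pool of both libraries with no replicate error and no test. There is no mutant, treatment or second stage, and whole animals mix neurons with all other tissues.

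Transmitter release begins when a vesicle docks at the active zone, where the vesicle protein synaptobrevin pairs with syntaxin and SNAP-25 of the plasma membrane to form the SNARE complex that drives fusion. Munc18 and Munc13 proteins prepare the complex, complexin and tomosyn tune it, synaptotagmin reads the calcium signal, and clathrin adaptors, endophilin, synaptojanin and dynamin retrieve the membrane. A poly(A) tail is added to the mRNA in the nucleus, binds poly(A)-binding protein and is shortened in the cytoplasm, so its length in a steady-state sample reflects both the tail added and its later trimming.

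The synaptic genes did not share a single tail length. Their medians ran from 64 nt for the complexin gene cpx-1 to 110.5 nt for the Munc13 gene unc-13, within a range of 29 to 162 nt over all genes with at least 100 tags. The median over the 26 genes was 83.5 nt, beside 80 nt over all 8803 such genes. The tails of each single gene were also widely spread. The interquartile range within a gene had a median of 64.1 nt over the 26 synaptic genes and 54 nt over all genes.

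Each gene's median is given with a 95% order-statistic interval, which covers counting error only. By that interval 6 of the 26 genes lay wholly below 80 nt, 9 lay wholly above it and 11 included it. The background over all 8803 genes was 36.7% below and 35.0% above, so the 9 genes above, 34.6% of 26, were at the background share. None of the 26 lay 20 nt or more below 80 nt with its interval clear, against a background of 11.8%. At least 20 nt above, with intervals clear, were 5 genes (unc-13, unc-26, tom-1, dyn-1 and unc-16), or 19.2%, against a background of 12.6%. In the order of the medians, all 25 pairs of neighbours had intervals that overlapped, whereas 148 of all 325 pairs of synaptic genes had intervals apart. The share of such pairs among all genes was not counted. The quartiles of the medians were 75.5 and 90.4 nt over the 26 synaptic genes and 69 and 91 nt over all 8803 genes. By these quartiles the synaptic medians were no more spread than those of all genes.

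**Figure D1:**
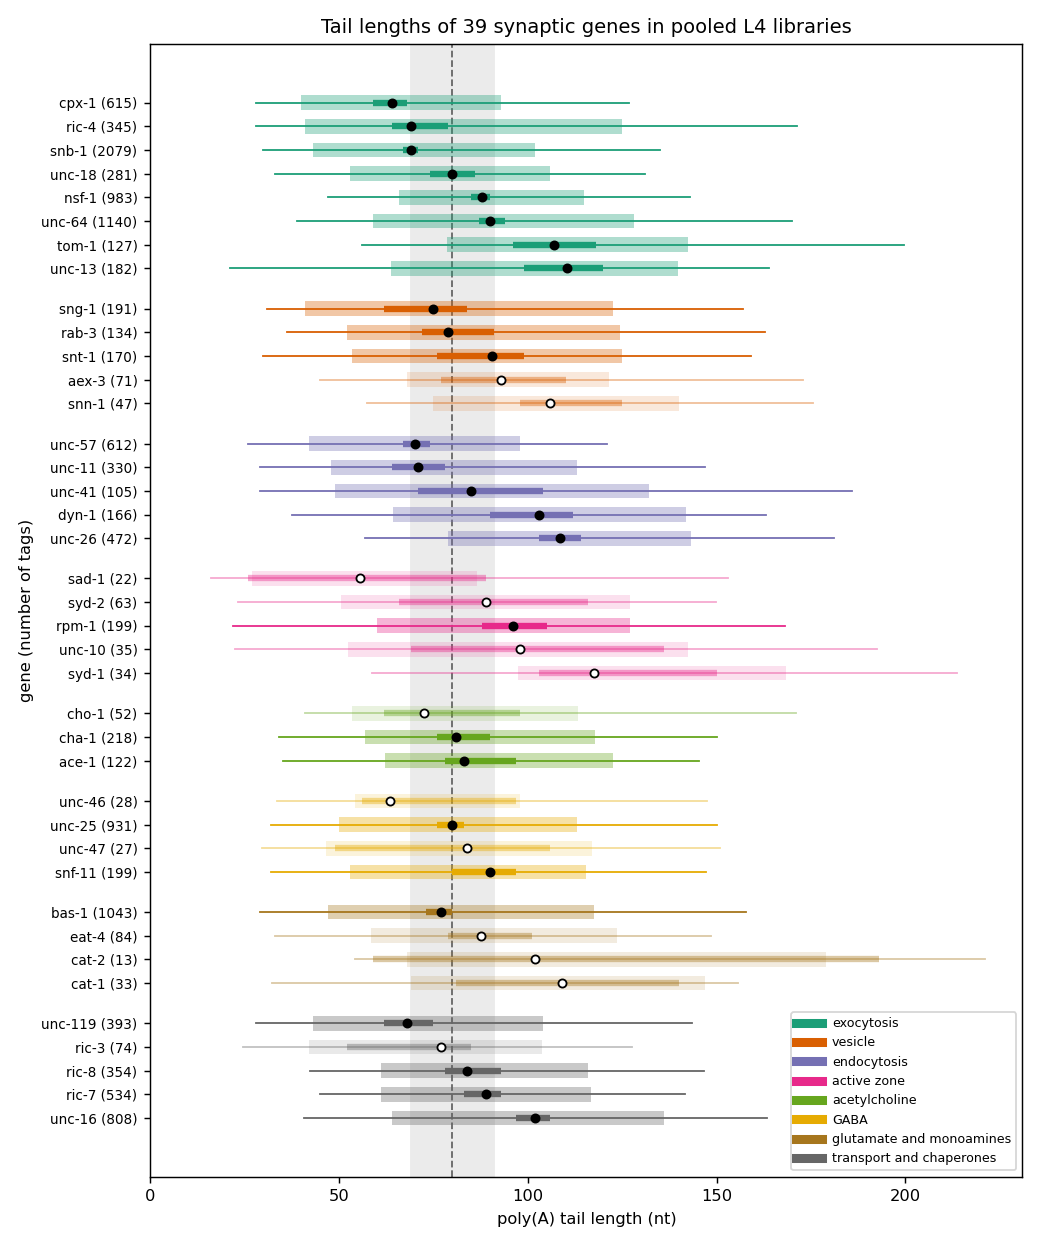
Tail length in nt on the x axis for the 39 listed synaptic genes, grouped by role, with the number of tags beside each name. Dots are medians (open under 100 tags), thick lines their 95% order-statistic intervals, bars the middle 50% of tags and thin lines the 10th to 90th percentile. The dashed line is the median over genes, 80 nt, and the grey band the middle 50% of gene medians, 69 to 91 nt; most bars run well past the band on both sides.

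The 3 neuronal SNARE genes did not have tails of 1 length. snb-1, which encodes synaptobrevin, had 2079 tags with a median of 69 nt (interval 67 to 71 nt) and quartiles of 43 and 102 nt. ric-4, which encodes SNAP-25, had 345 tags and the same median of 69 nt (64 to 79 nt), but its quartiles were 41 and 125 nt. unc-64, which encodes syntaxin, had 1140 tags, a median of 90 nt (87 to 94 nt) and quartiles of 59 and 128 nt; it partly overlaps set-25 in RefSeq's table, a gene with 48 tags and a median of 103 nt. The syntaxin message thus had longer tails than those of the proteins it pairs with.

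Set as differences of medians, unc-64 was 21 nt longer than snb-1 (interval of the difference 17.4 to 25.5 nt) and 21 nt longer than ric-4 (10.6 to 27.4 nt). Between ric-4 and snb-1 the difference was 0 nt (-5.39 to 10.2 nt), yet their distributions were not alike. In ric-4, 29.3% of tails were 44 nt or shorter, 13.3% lay between 71 and 100 nt, and 6.09% exceeded 200 nt (95% Wilson interval 4.02 to 9.13%). In snb-1, 26.5% were 44 nt or shorter, 22.1% lay between 71 and 100 nt, and 0.818% exceeded 200 nt (0.511 to 1.31%). The ric-4 tails thus held fewer of the middle lengths and more of the longest ones, and the median alone did not show it.

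Among the factors that act on the SNAREs, the regulators covered the full range of the list. cpx-1, the complexin gene, had 615 tags, a median of 64 nt (59 to 68 nt) and quartiles of 40 and 93 nt, with 21.1% of tails over 100 nt. tom-1, which encodes tomosyn, an inhibitor of SNARE assembly, had 127 tags, a median of 107 nt (96 to 118 nt) and quartiles of 78.5 and 142.5 nt, with 55.1% over 100 nt. The difference of tom-1 minus cpx-1, both genes of SNARE-binding regulators, was 43 nt (31.3 to 55.1 nt). In RefSeq's table the gene ostd-1 lies inside the span of tom-1; it had 3862 tags and a median of 66 nt, and the labels do not say how tags were assigned between overlapping genes.

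unc-13, which encodes the priming factor Munc13, had 182 tags, a median of 110.5 nt (99 to 120 nt) and quartiles of 63.8 and 139.75 nt. It held long and very short tails together, with 56.6% over 100 nt and 13.2% under 30 nt (Wilson 9.02 to 18.9%). unc-18, which encodes the syntaxin-binding Munc18, had 281 tags, a median of 80 nt (74 to 86 nt) and quartiles of 53 and 106 nt, close to the typical gene. The difference of unc-13 minus unc-18 was 30.5 nt (17.5 to 41.7 nt), and that of unc-64 minus its partner unc-18 was 10 nt (3.29 to 17.2 nt). nsf-1, which encodes the ATPase that takes SNARE complexes apart, had 983 tags, a median of 88 nt (85 to 90 nt) and quartiles of 66 and 115 nt. Its interquartile range of 49 nt was the narrowest of the 26, and only 2.24% of its tails were under 30 nt.

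**Figure D2:**
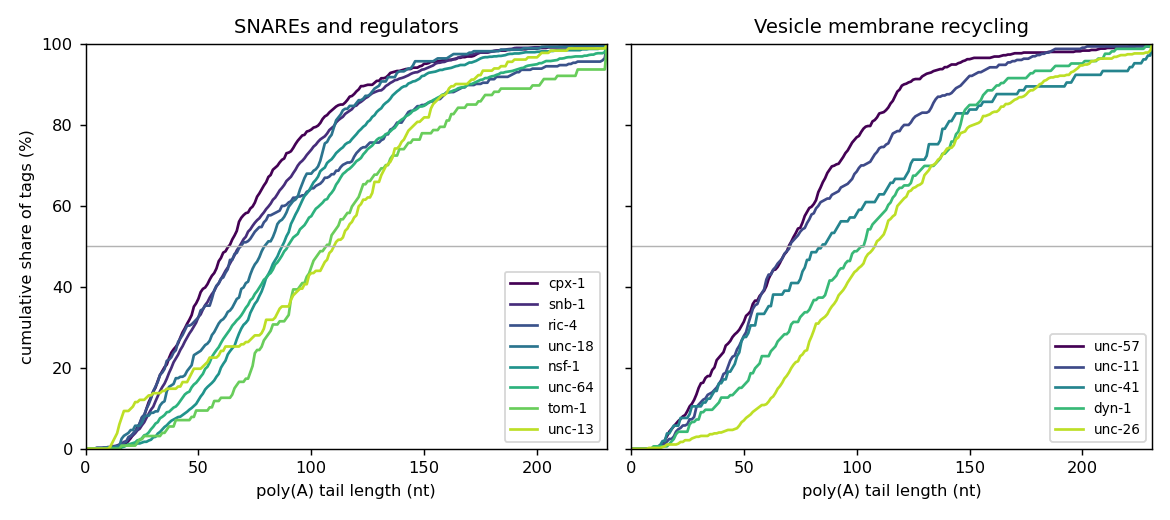
Cumulative share of tags in percent against tail length in nt, for 8 genes of SNAREs and their regulators (left) and 5 genes of vesicle membrane recycling (right); the grey line marks 50%. The ric-4 curve starts with that of snb-1, crosses 50% at the same 69 nt and then flattens, and the unc-26 curve lies right of the unc-57 curve, with medians of 108.5 and 70 nt.

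The 3 vesicle protein genes with at least 100 tags had medians near that of all genes but wide distributions. snt-1, the gene of the calcium sensor synaptotagmin, had 170 tags, a median of 90.5 nt (76 to 99 nt) and quartiles of 53.5 and 125 nt. rab-3, which encodes the vesicle GTPase Rab3, had 134 tags, a median of 79 nt (72 to 91 nt) and quartiles of 52.3 and 124.5 nt; it overlaps damt-1 in RefSeq's table, a gene with 225 tags and a median of 53 nt. sng-1, which encodes the vesicle membrane protein synaptogyrin, had 191 tags, a median of 75 nt (62 to 84 nt) and quartiles of 41 and 122.5 nt. All 3 intervals included 80 nt, and all 3 genes had interquartile ranges above 71 nt. Below that depth, aex-3, which encodes the exchange factor for Rab3, had 71 tags and a median of 93 nt, and the synapsin gene snn-1 had 47 tags and a median of 106 nt.

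Of the 5 membrane recycling genes with at least 100 tags, 2 had intervals below 80 nt, 2 above it, and 1 included it. unc-57, which encodes endophilin, had 612 tags, a median of 70 nt (67 to 74 nt) and quartiles of 42 and 98 nt. unc-11, which encodes the clathrin adaptor AP180, had 330 tags, a median of 71 nt (64 to 78 nt) and quartiles of 48 and 113 nt. unc-26, which encodes the lipid phosphatase synaptojanin that endophilin recruits, had 472 tags, a median of 108.5 nt (103 to 114 nt) and quartiles of 79 and 143.25 nt; it partly overlaps JC8.16 in RefSeq's table, a gene with 18 tags and a median of 138 nt. Only 2.97% of unc-26 tails were under 30 nt (Wilson 1.77 to 4.92%), against 13.4% in unc-57 (10.9 to 16.3%).

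dyn-1, which encodes the membrane-cutting GTPase dynamin, had 166 tags, a median of 103 nt (90 to 112 nt) and quartiles of 64.3 and 142 nt. The stonin gene unc-41, an adaptor for synaptotagmin retrieval, had 105 tags, a median of 85 nt (71 to 104 nt) and quartiles of 49 and 132 nt. As differences of medians, unc-26 was 38.5 nt longer than unc-57 (31.7 to 44.8 nt) and 37.5 nt longer than unc-11 (28.6 to 46.4 nt), and dyn-1 was 33 nt longer than unc-57 (19.4 to 42.5 nt). The pairs of partner genes compared here, 12 in all, were chosen after their values were seen, and their intervals are not adjusted for that number.

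Genes of the active zone and of presynaptic assembly were thinly sampled, and 1 of 5 passed 100 tags. rpm-1, which encodes a large ubiquitin ligase that limits synapse growth, had 199 tags, a median of 96 nt (88 to 105 nt) and quartiles of 60 and 127 nt. Like unc-13 it joined 46.7% of tails over 100 nt with 12.1% under 30 nt. fsn-1, the gene of its F-box partner, had 395 tags and a median of 65 nt (58 to 70 nt), so that rpm-1 was 31 nt longer (21.6 to 42.4 nt). The RIM gene unc-10 had 35 tags and a median of 98 nt, the synapse assembly gene syd-1 had 34 tags and 117.5 nt, syd-2, the liprin-alpha gene, had 63 tags and 89 nt, and the kinase gene sad-1 had 22 tags and 55.5 nt. At these depths the intervals were wide, from 26 to 89 nt for sad-1 and from 103 to 150 nt for syd-1. In RefSeq's table syd-2 partly overlaps F59F5.5, a gene with 18 tags and a median of 77.5 nt.

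The 5 transmitter genes with at least 100 tags all had intervals that included 80 nt. cha-1, which encodes choline acetyltransferase, had 218 tags, a median of 81 nt (76 to 90 nt) and quartiles of 57 and 117.75 nt. Its row carries the clone name ZC416.8, and RefSeq's table has cha-1 overlapping unc-17, the vesicular acetylcholine transporter gene, so tags of unc-17 may be counted in it. ace-1, an acetylcholinesterase gene, had 122 tags, a median of 83 nt (78 to 97 nt) and quartiles of 62.3 and 122.5 nt. The choline transporter gene cho-1 had 52 tags and a median of 72.5 nt.

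unc-25, which encodes the enzyme that makes GABA, had 931 tags, a median of 80 nt (76 to 83 nt) and quartiles of 50 and 113 nt. In it 5.16% of tails exceeded 200 nt (Wilson 3.91 to 6.77%). snf-11, the GABA uptake transporter gene, had 199 tags, a median of 90 nt (80 to 97 nt) and quartiles of 53 and 115.5 nt; the difference of snf-11 minus unc-25 was 10 nt, and its interval, -0.44 to 18.1 nt, held 0. The vesicular GABA transporter gene unc-47 had 27 tags and a median of 84 nt, and unc-46, whose protein sorts that transporter to vesicles, had 28 tags and 63.5 nt.

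bas-1, which encodes the decarboxylase of serotonin and dopamine synthesis, was the deepest monoamine gene, with 1043 tags, a median of 77 nt (73 to 80 nt) and quartiles of 47 and 117.5 nt. Of its tails 10.1% were under 30 nt, where the median over all genes was 6.34%. Over 100 nt were 35.9% of its tails, beside a median over all genes of 31.8%. The vesicular glutamate transporter gene eat-4 had 84 tags and a median of 87.5 nt. In RefSeq's table ZK512.7 lies inside the span of eat-4, with 318 tags and a median of 61 nt. ZK512.2, with 263 tags and a median of 61 nt, partly overlaps eat-4. cat-1, the vesicular monoamine transporter gene, had 33 tags and 109 nt, and cat-2, the tyrosine hydroxylase gene, had 13 tags and 102 nt (59 to 193 nt). In whole animals fewer cells that express a gene and less RNA per cell cannot be told apart, so these tag numbers are read as depth and not as levels.

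The remaining genes act in transport, folding and signalling. unc-16, which encodes a JIP3 adaptor of axonal transport, had 808 tags, a median of 102 nt (97 to 106 nt) and quartiles of 64 and 136 nt; it partly overlaps ZK1098.11 and C48B4.6 in RefSeq's table, with medians of 70.5 and 56 nt. unc-119, which encodes a chaperone of lipid-modified proteins, had 393 tags, a median of 68 nt (62 to 75 nt) and quartiles of 43 and 104 nt. ric-7, needed for mitochondria in axons, had 534 tags, a median of 89 nt (83 to 93 nt) and quartiles of 61 and 116.75 nt; droe-4, with 309 tags and a median of 81 nt, lies inside its span. ric-8, which acts on G protein alpha subunits, had 354 tags, a median of 84 nt (78 to 93 nt) and quartiles of 61 and 116 nt. The acetylcholine receptor chaperone gene ric-3 had 74 tags and a median of 77 nt. Of the 13 listed synaptic genes with fewer than 100 tags, snn-1, syd-1 and cat-1 had intervals wholly above 80 nt, none lay wholly below, and 10 included it; over all 4798 genes under 100 tags the background was 23.0% above and 11.3% below.

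Many synaptic genes had a wide spread of tails within the gene. An interquartile range above 62.5 nt, the upper quartile over all genes, was found in 15 of the 26 synaptic genes, or 57.7%, against a background of 24.7%. They were ric-4 (84 nt), unc-41 (83 nt), sng-1 (81.5 nt), dyn-1 (77.8 nt), unc-13 (76 nt), rab-3 (72.3 nt), unc-16 (72 nt), snt-1 (71.5 nt), bas-1 (70.5 nt), unc-64 (69 nt), rpm-1 (67 nt), unc-11 (65 nt), unc-26 (64.3 nt), tom-1 (64 nt) and unc-25 (63 nt). snf-11 lay on the limit at 62.5 nt and was not counted, and unc-119 lay just under it at 61 nt. This comparison was chosen after the table was read, out of 18 measures set side by side between the synaptic genes and all genes, as were those of tails under 30, over 100 and over 200 nt, and none of them has a test.

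**Figure D3:**
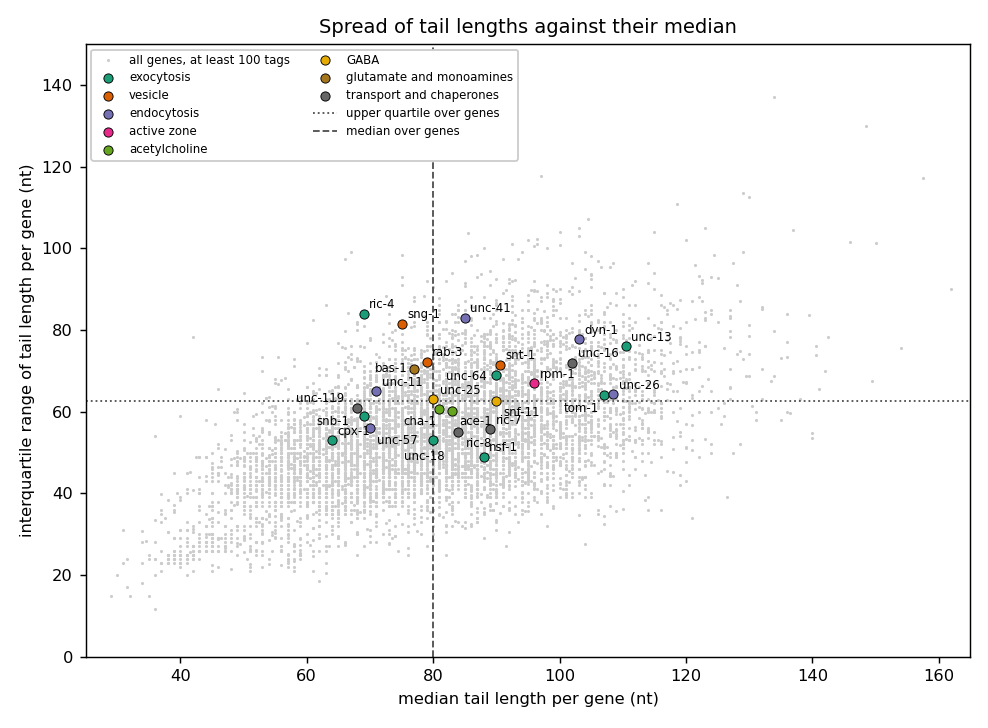
Interquartile range of tail length per gene in nt against the median tail length per gene in nt, for the 26 synaptic genes (coloured by role) and all 8803 genes with at least 100 tags (grey dots). The dotted line is the upper quartile over genes, 62.5 nt, with 15 synaptic genes above it on both sides of the dashed median of 80 nt.

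Spread also moved with depth and with the median itself. Cut into 10 equal groups by tags, all genes had a median interquartile range of 57.8 nt in the group with the fewest tags and 44 nt where tags were most numerous. Cut into 10 groups by median tail length, it was 42 nt among the shortest medians and 64.5 nt among the longest. Ranked only within their own group by tags, 15 of 26 synaptic genes were in the widest 25%, and within their own group by median tail length 13 were. By SD in place of the interquartile range 16 were, and by the ratio of the upper to the lower quartile 12 were. The SD of single genes had a median of 48.4 nt in the synaptic genes and 39.8 nt in all genes, and was above the latter value in 24 of 26.

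The wider interquartile range lay on the long side. The upper quartile had a median of 120.1 nt in synaptic genes and 109 nt in all genes, and was above the latter value in 21 of 26. The lower quartile had a median of 53.3 nt in synaptic genes and 53 nt in all genes, with 13 of 26 above the latter. With each gene given equal weight, synaptic genes had smaller mean shares of tags than all genes in every 15 nt band between 30 and 104 nt, and larger shares in every band below and above. In the band from 30 to 44 nt the share was 9.94% in synaptic genes and 12.4% in all genes, and from 135 to 149 nt it was 6.45% in synaptic genes and 4.87% in all genes. Counted by tag, tails under 30 nt were 7.98% of the tags of the 39 listed synaptic genes and 9.33% of all tags. By gene, with at least 100 tags, the median shares were 8.55% in synaptic genes and 6.34% in all genes. The larger share of short tails was thus not seen in the pool, but all tags are weighted toward genes with many tags. A share of tails under 30 nt above the median over genes, together with a share over 100 nt above its median, was found in 12 of the 26 synaptic genes (46.2%) and in 17.2% of all genes. These 12 were unc-13, ric-4, unc-18, sng-1, snt-1, dyn-1, unc-41, rpm-1, ace-1, unc-25, snf-11 and bas-1. The medians over genes were 6.34% under 30 nt and 31.8% over 100 nt, and some of the 12 passed them within counting error. For example, unc-18 had 32.03% over 100 nt (Wilson 26.8 to 37.7%), and unc-25 had 6.66% under 30 nt (5.23 to 8.45%).

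**Figure D4:**
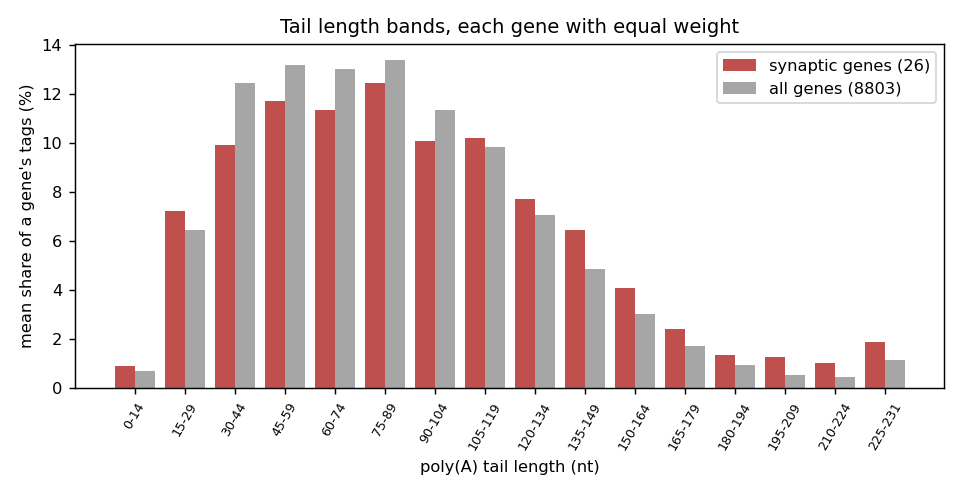
Mean share of a gene's tags in percent, by 15 nt bands of tail length (the last band ends at 231 nt), for 26 synaptic genes (red) and all 8803 genes with at least 100 tags (grey). The red bars are lower from 30 to 104 nt and higher outside that range.

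Tails over 200 nt made up a larger share of most synaptic genes than of the typical gene. The share of tails over 200 nt had a median of 3.68% in synaptic genes and 1.02% in all genes, and it was above the upper quartile over genes, 2.33%, in 15 of 26 synaptic genes against a background of 25.0%. The highest shares were 10.2% in tom-1 (Wilson 6.08 to 16.7%), 7.62% in unc-41 (3.91 to 14.3%) and 6.09% in ric-4. The lowest were 0.818% in snb-1 and 0.909% in unc-11. Pooled over the 39 listed genes, 13316 tags or 0.0766% of the table, 3% of tails exceeded 200 nt and 1.27% stood at 231 nt, the longest length called, where the values are lower bounds. Over all tags of the table those shares were 0.66% and 0.306%, but all tags are weighted toward genes with many tags. In the highest of 10 groups by tags, which held 0 of the 26 synaptic genes, the median share over 200 nt was 0.335%. Without the tails at 231 nt, 17 of 26 synaptic genes were in the highest 25% for tails over 200 nt and 14 in the widest 25%. Over all genes in 10 groups by median tail length, the median share over 200 nt was 0.253% at the shortest medians and 3.91% at the longest. In 10 groups by the span from gene start to gene end it was 0.481% at the shortest spans and 1.65% at the longest. The share over 200 nt was not ranked within either kind of group.

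Tag number and gene size went with the medians in the same direction in the list and in all genes. Across the 26 synaptic genes Spearman's rho of the median with tags was -0.32, and across 8803 genes it was -0.30. Genes with few tags have noisier medians, and both quantities come from the same tags. Measured from the median of genes in the same of 10 groups by tags, the synaptic medians ran from -16 nt in cpx-1 to 26.5 nt in unc-13 and unc-26, with a median of 0.5 nt and 13 of 26 above 0. The deepest gene, snb-1, lay 6 nt below its group, at 69 nt beside 75 nt.

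**Figure D5:**
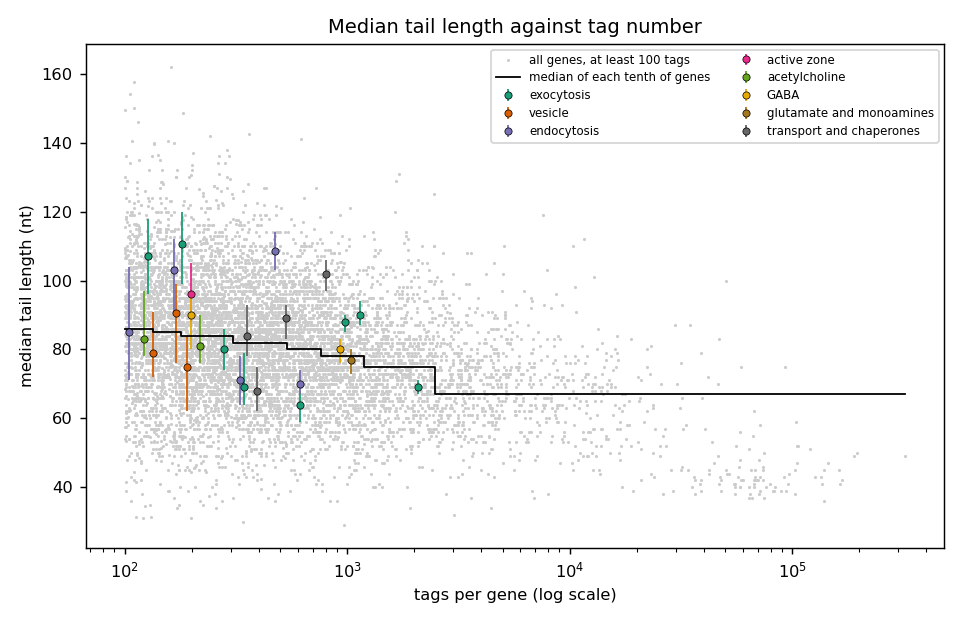
Median tail length in nt against tags per gene on a log axis, for the 26 synaptic genes (coloured by role, with 95% order-statistic intervals) and all 8803 genes with at least 100 tags (grey dots). The black steps are the medians of 10 equal groups of genes by tags, from 86 nt at the fewest tags to 67 nt at the most; synaptic genes lie on both sides of the steps.

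Synaptic genes occupied long stretches of the genome. By RefSeq's annotation of the WBcel235 assembly, the span from gene start to gene end, introns included, had a median of 6563 bases in the 26 synaptic genes and 2427 bases in all genes. The longest span, 31332 bases, belonged to unc-13, which also had the longest median tail, and the shortest, 940 bases, to snb-1. Spearman's rho of the median tail with the span was 0.56 across the 26 synaptic genes and 0.44 across 8783 genes with a match. These are descriptions over genes, not over samples, and the span is not the length of the mRNA. Ranked within 10 groups of genes by span, 11 of 26 synaptic genes were in the widest 25% by interquartile range, beside 15 without that grouping; the background was 24.5% within those groups.

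A second list held other genes that act at synapses or in axons. Of 57 such genes, 48 were listed and 39 had at least 100 tags. Their medians had a median of 89 nt, with 22 of 39 above 80 nt by their intervals, 5 below and 12 including it. In the same order the synaptic list had 9, 6 and 11 of 26 genes. The background over all genes was 35.0% above and 36.7% below, and the difference between the lists was not tested. gta-1, the GABA transaminase gene, had the most tags, 11110, with a median of 65 nt, the same as fsn-1 at the short end. unc-44, the neuronal ankyrin gene, had 5454 tags and a median of 75 nt. unc-14, which acts with unc-51 in axon growth, was longest at 118 nt (112 to 125 nt), and was 16 nt longer than unc-16 (8.79 to 24.6 nt). In this list 12 of 39 genes were in the widest 25%, beside 15 of 26 in the synaptic list. In the highest 25% for tails over 200 nt were 14 of 39, again beside 15 of 26.

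SNAREs and fusion factors of other membranes were listed as well. Of 29 named, 27 were listed and 24 had at least 100 tags. The medians of the 24 had a median of 90 nt, with 14 above 80 nt, 2 below and 8 including it. The background over all genes was 35.0% above and 36.7% below. Medians in this list ranged from syx-4, a syntaxin gene, at 55 nt (50 to 59 nt) to syx-16 at 108 nt (103 to 116 nt). The most abundant were sft-4, at 80 nt with 3243 tags, and nbet-1, at 82 nt with 2734 tags. The list also named bet-1, and neither sft-4 nor bet-1 is a fusion factor; without them 13 of 22 genes lay above and 2 below. Beside the neuronal genes, syx-2 had a median of 93 nt and snb-2, a second synaptobrevin gene, of 105 nt (100 to 109 nt) where snb-1 had 69 nt; those 2 genes were singled out after their values were seen. In this list 8 of 24 genes were in the widest 25%, and 9 of 24 were in the highest 25% for tails over 200 nt.

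Markers of the main tissues were found in the pool, as labelled whole animals would have them. Listed were 9 of 10 neuronal, 8 of 8 muscle, 8 of 8 intestinal, 7 of 8 hypodermal and 8 of 8 germline and sperm markers. The neuronal marker rgef-1 and the hypodermal collagen gene col-19 had no row. In the widest 25% were 0 of 8 muscle, 2 of 7 intestinal, 0 of 7 hypodermal and 1 of 6 germline and sperm markers. The neuronal markers had 1 of 7, and that gene, rab-3, is in the synaptic list, as are snb-1 and unc-119. The medians of the 7 neuronal markers had a median of 68 nt. By their intervals 5 lay below 80 nt and 0 above, beside backgrounds of 36.7% and 35.0%. Among those below was the marker with the most tags, tba-1, with 8242 tags and a median of 67 nt. Whether tba-1 or the other markers are confined to neurons was not tested. The muscle, intestinal, hypodermal and germline lists had medians of 76, 66, 73 and 64 nt. How much of each synaptic gene's RNA came from neurons was not tested.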

How the data were processed

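Whole wild-type L4 animals were profiled by mTAIL-seq in 2 biological replicates. Per the labels' protocols, a splint oligonucleotide favoured adapter ligation to RNAs ending in poly(A), fragments of 250 to 1000 nt were sequenced on a MiSeq with 51 and 251 cycles, and tails were called by the authors with tailseeker2. STAR and bedtools are named in the submitters' processing notes; roles, versions, strand handling, read collapsing and the genome build are not stated in the labels or the table.

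The deposited counts are tags per gene, both replicates pooled and not normalized, 17376490 in all; the deposited lists of tail lengths, in nt, differed from the deposited counts and medians in 0 genes. The table's other columns in nt, the authors' summaries of those lists, were not used. Depth per replicate is unknown. From the lists, Python 3.11.15 with numpy 2.4.6, pandas 2.3.3 and scipy 1.17.1 computed each gene's median with its 95% order-statistic interval, quartiles, and shares of tails with 95% Wilson intervals. Both cover counting error only, and copies of 1 molecule would make them too narrow. Intervals of differences combine those of the 2 medians by squares and add. Genes with at least 100 tags entered comparisons. The interval method was checked on simulated data.

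Members and gene lists were chosen with earlier results of these data known. All 42 members are named; of the other lists the 2 genes with most tags, the shortest and the longest, and others are marked. Annotation came from RefSeq's WBcel235 table, which holds all 42 members; the authors' build may differ, so no coordinates are given. No sequences are shown. Alternatives were the summary, tag minimum, tail limits and centre, and, added after the table was read, measures of spread, shares of long tails and overlapping genes.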

Additional observations from a re-analysis of the deposited data

How the results depend on the processing

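The median over synaptic genes stayed between 78.6 and 85 nt under all alternatives to the summary, the tag minimum and the tail limits, each time above the value over all genes for the same setting, and no gene called above or below moved to the opposite side. Centred on the median over all tags, 58 nt, 0 of 26 genes lay below and 26 above, 18 of them by at least 20 nt, where 85% and 56.3% of all genes did so. With a minimum of 400 tags 10 synaptic genes remained, 3 below, 5 above, 2 at least 20 nt above and 5 in the widest 25%, with backgrounds of 39%, 40.7%, 10.5% and 23.4%. Genes at least 20 nt above numbered 2 with means of log2(tail length + 1), with a background of 7.38%. Genes left out next were cha-1, which overlaps unc-17, and tom-1, rab-3, unc-16 and ric-7, which overlap a gene with at least 200 tags. Without them 3 of 21 genes lay at least 20 nt above, with a background of 12.6%. Without unc-64 and unc-26 as well, which overlap genes with fewer tags, 4 of 19 genes lay above, 2 of them by at least 20 nt. Below lay 6, and the backgrounds in that order were 35%, 12.6% and 36.7%. The median over the 19 was 80 nt, equal to that over all genes. With means in place of medians the threshold was the median over all genes of their means, not 80 nt. By it 18 of 26 genes kept their side, 6 gained a side and 2 lost it, unc-11 and ric-4. The 6 that gained a side, all above the typical gene, were the transmitter genes ace-1, unc-25 and bas-1, and snt-1, unc-41 and ric-8. ric-4 also lost its side with tails of at least 20 nt, at 73 nt (64 to 81 nt). bas-1, whose interval included 80 nt, lay above the typical gene by its mean, with an interval of 84.2 to 90.5 nt, and below it without tails at the longest length, at 75 nt (71 to 79 nt). Between 11 and 16 of 26 genes were in the widest 25% under the other alternatives with 26 genes. Leaving out a replicate was not possible, because the table pools both, and the 13 listed genes under 100 tags are limited by depth.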
